A study of Mus musculus with 8 samples.

Results

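Cx3cr1+ cells of the injured mouse sciatic nerve that also carried transcripts of Tmem119, Olfml3 or Gpr34 were examined. They were chosen by measured values. A barcode was taken if it held at least 500 genes and under 10% mitochondrial UMIs (unique molecular identifiers, 1 per captured RNA molecule), at least 2 UMIs of Cx3cr1, at least 2 UMIs of Tmem119, Olfml3 and Gpr34 summed (called the trio below), and at most 2 UMIs of Cd163, Lyve1 and Cbr2 summed. Of 9133 barcodes in 4 libraries, 7752 passed the filters on genes and mitochondrial UMIs, and 1849 of these met the whole rule. They are called Cx3cr1+trio+ cells here, and the rest of the 7752 are called the other cells.

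Male and female C57BL/6JolaHsd mice, bought at 7 weeks of age and carrying no transgene, received partial sciatic nerve ligation (PSNL), in which part of the nerve is tied off, a nerve crush, or sham surgery that exposed the nerve only. CD45+/CD11b+ cells of the nerve were sorted after 1 or 15 weeks, without Ly6G+ neutrophils at the early time, and hashtag antibodies marked the samples. At 1 week there were a PSNL female and male, a crush female and male, and a sham female and male. At 15 weeks there were 4 PSNL samples (F1, F2, M1 and M2) and 3 crush samples (F1, F2 and M1), and sham nerves of that time were not analysed here. How many mice went into each hashtag sample is not given in the sources used here, so p-values measure the spread between hashtag samples. Injury coincided with library apart from a sham in each 1 week library, and time coincided with the labelled batch. These effects cannot be told apart.

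Cx3cr1 encodes the receptor for fractalkine, a chemokine displayed by neurons. Tmem119 encodes a membrane protein used as a marker of microglia, the macrophages of the brain and spinal cord. Olfml3 encodes a secreted olfactomedin-like protein and Gpr34 a receptor for lysophosphatidylserine, and both are strong in mouse microglia. The microglial program depends on transforming growth factor beta (TGF-beta) and on the transcription factor Sall1. Macrophages of peripheral nerve are known to share part of this program, whereas macrophages of the epineurium, the outer sheath, are known for Cd163, a haemoglobin scavenger receptor, Lyve1, a hyaluronan receptor, and Cbr2, a carbonyl reductase.

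Gpr34 carried most cells past the rule, and Tmem119 carried few. Of the 1849 cells, 1647 (89.1%) held at least 1 UMI of Gpr34, 1113 (60.2%) of Olfml3 and 503 (27.2%) of Tmem119. All 3 genes were found together in 238 cells (12.9%). Gpr34 was the only trio gene found in 542 cells (29.3%), and Tmem119 in 35 (1.89%). The share with Tmem119 was 66.5% in the crush library and 62.7% in the PSNL library at 1 week, and 17.9% (crush) and 27.0% (PSNL) at 15 weeks. The share with Gpr34 lay the other way, at 69.4% and 64.2% at 1 week and at 90.2% and 95.1% at 15 weeks. The name therefore described most cells by Cx3cr1 and Gpr34, and Tmem119 was a feature of the minority at 15 weeks.

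Many cells lay near the edges of the rule. Exactly 2 Cx3cr1 UMIs were held by 173 members, and 169 cells missed the rule by 1 Cx3cr1 UMI alone. Exactly 2 trio UMIs were held by 458 members, and 515 cells missed it by 1 trio UMI alone. Of the 1849, 1572 had no UMI of Cd163, Lyve1 or Cbr2 and 80 had 2, while 60 cells were left out with 3 and 184 with 4 or more. The median was 8 Cx3cr1 and 4 trio UMIs per cell.

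The libraries were of unequal depth. Cells of the rule held a median of 8407.5 UMIs (crush) and 12465 (PSNL) at 1 week, and 9294 and 8047.5 at 15 weeks, against 5157, 5186.5, 8238.5 and 6987 in all kept barcodes. A single hashtag was found on 1704 of the 1849 cells, and on 32 of the 67 in the PSNL library at 1 week, where 34 carried several. Doublet calling by Scrublet marked 0 to 7 barcodes per library, too few to be of use. The libraries shared 11 barcodes, none of them members. Xist was at most 1.39 CPM (a gene's UMI counts scaled to a common total per sample) in any male sample. Ddx3y was at most 1.35 CPM in any female sample. The hashtag threshold was chosen with the separation of the sexes by these genes known, so this match is no independent check. It also cannot tell samples of the same sex apart.

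At 15 weeks the cells made up over 29% of every sample. The share of kept barcodes was 29.1% in crush F1, 36.5% in crush F2 and 42.8% in crush M1. In PSNL it was 38.5% in F1, 32.9% in F2, 38.8% in M1 and 39.8% in M2. The injuries overlapped, with 37.5 ± 3.14% in PSNL (SD, n = 4) and 36.1 ± 6.84% in crush (SD, n = 3), and did not differ beyond this spread (two-sided exact permutation test, p = 0.8, smallest possible p = 0.0571).

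At 1 week the share was lower in every sample, and crush stood above PSNL. It was 9.67% (32 of 331, exact 95% interval 6.71 to 13.4%) in the crush female and 15.4% (93 of 605, 12.6 to 18.5%) in the crush male. In PSNL it was 2.26% (12 of 532, 1.17 to 3.91%) in the female and 2.17% (19 of 874, 1.31 to 3.37%) in the male. The sham female had 1 such cell of 64 (1.56%) and the sham male 0 of 106, which allows a share of up to 2.83%. The crush samples did not overlap with the PSNL or sham samples, but groups of 2 and 2 cannot reach p under 0.05 (exact permutation p = 0.333, the smallest possible). Between 1 and 15 weeks the samples did not overlap in PSNL (exact permutation p = 0.133, smallest possible) or in crush (exact permutation p = 0.2, smallest possible), and adjusted over the 6 comparisons made p was 0.4 to 0.8.

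The PSNL share at 1 week was no higher than that of another cell type. Neutrophil-like barcodes (at least 20 UMIs of S100a8 and S100a9 and at least 2 of Csf3r, Retnlg and Cxcr2) met the rule in 5 of 244 with 1 hashtag in that library (2.05%, exact interval 0.669 to 4.72%). All 493 neutrophil-like barcodes of that library had a median of 4544 UMIs, beside 5186.5 in all its kept barcodes. The 2.26% and 2.17% of PSNL lie within that interval, and without granulocyte-like barcodes they were 2.59% and 2.07%. Fcrls, a microglial gene outside the rule, was found in 83.3% and 63.2% of the cells of PSNL female and male, against 7.33% and 3.97% of the other cells. The cells were deeper, with medians of 8853 and 9594 UMIs against 3622 and 4920.5 in all kept barcodes of these samples. After thinning to equal depth, the shares with Fcrls were 50% and 47.4%, against 4.19% and 1.56% of the other cells. The part of free RNA or of doublets in the PSNL share was not tested. In the crush library at 1 week 0 of 36 neutrophil-like barcodes with 1 hashtag met the rule, with an upper exact limit of 9.74%. Intervals and limits cover counting error only.

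Thinning every barcode to 2000 UMIs lowered the share in every sample with members except the sham female. The rule counts UMIs, and its upper limit on Cd163, Lyve1 and Cbr2 is also easier to meet at lower depth. It left 3.17% and 4.83% in crush and 0.254% and 0.414% in PSNL at 1 week, 6.72 to 8.81% in crush and 6.24 to 13.6% in PSNL at 15 weeks, and 2 of 47 cells in the sham female. Time points remained apart within each injury. The sham female, at 4.26%, then lay above the PSNL samples and the crush female. Crush and sham thus overlapped after thinning (exact permutation p = 0.667).

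**Figure D1:**
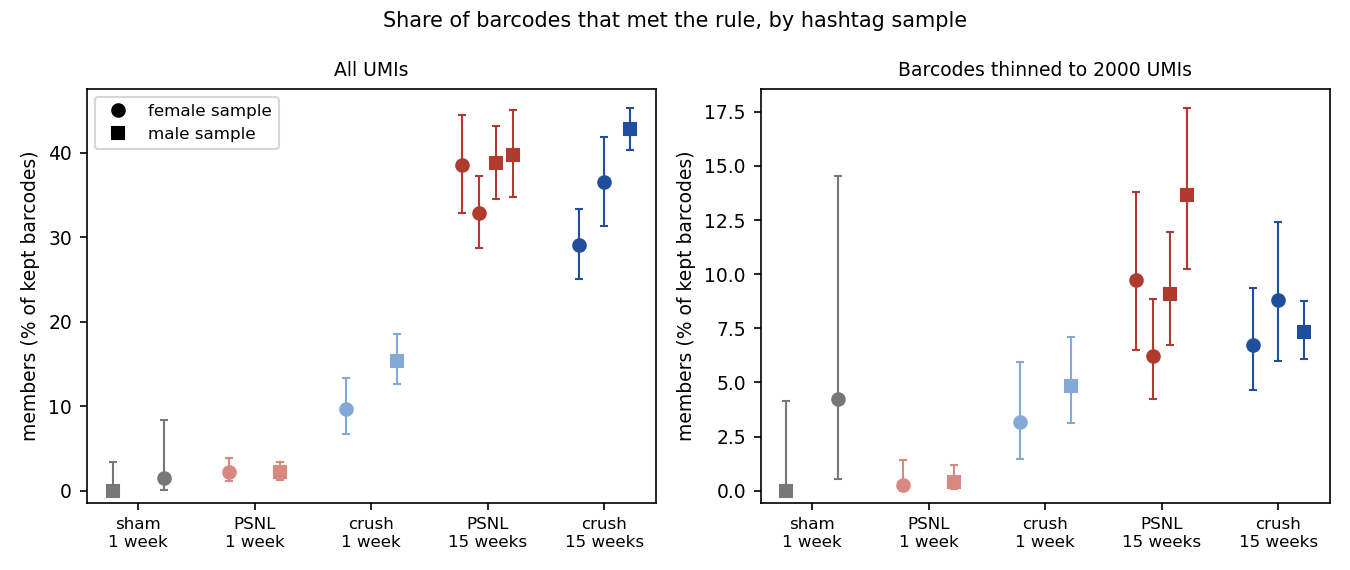
Share of kept barcodes that met the rule in each hashtag sample (points; circles female, squares male), with exact 95% binomial intervals (bars), for all UMIs (left) and after thinning every barcode to 2000 UMIs (right). All 7 samples of 15 weeks lie at 29.1% or above on the left, and the 2 PSNL samples of 1 week lie near 2%.

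The genes of the rule differed by time within the selected cells, which is given as description since the rule used them. On the scale of plain CPM of summed counts, Tmem119 was 155 and 199 in crush female and male at 1 week and 179 and 151 in PSNL. At 15 weeks it was 19.2, 21.2 and 29.3 in crush F1, F2 and M1, and 55.5, 70.4, 32.0 and 39.1 in PSNL F1, F2, M1 and M2. Every 15 week sample lay below every 1 week sample, and each PSNL sample above each crush sample at 15 weeks. Gpr34 lay at 113 to 220 CPM at 1 week and at 275 to 462 CPM at 15 weeks, with no overlap. Cx3cr1 ranged from 792 to 1341 CPM and Olfml3 from 66.0 to 196 CPM, and both overlapped between times. In the other cells of the same samples Gpr34 also lay higher at 15 weeks, at 88.2 to 186 CPM against 2.90 to 26.4 CPM, while Tmem119 stayed at or below 16.4 CPM in each of them. In all kept cells of sham nerves Tmem119 was at 0 in both samples.

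Other microglial genes only partly followed the rule. Of a list of 24 such genes outside the rule, 17 reached a mean of 50 CPM, 9 of these were higher in the Cx3cr1+trio+ cells than in the other cells of the same sample in all 11 samples with at least 10 members, and 1 was lower in all. The background is 5.97% of 3550 genes higher and 7.69% lower in every sample. The list's median log2 ratio was 0.66, against -0.01 over all 3550. P2ry12, the ADP receptor of microglial processes, was at 37.7 to 213 CPM (median log2 ratio 0.95), and P2ry13, a related receptor, at 14.1 to 51.4 CPM (1.35). Csf1r, the receptor for colony-stimulating factor 1, was at 518 to 1097 CPM (0.66), and Fcrls, an Fc-receptor-like protein, at 279 to 631 CPM (0.58). Trem2, a lipid-sensing receptor, was higher in 10 of 11 samples (1.15).

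Several defining microglial genes went against the name. Sall1 had 0 UMIs in the cells of every sample. Siglech, a sialic-acid-binding receptor of microglia, was at 6.87 to 76.1 CPM and higher than in the other cells in only 4 of 11 samples. Selplg, the ligand of P-selectin and listed as microglial, was lower in all 11. In barcodes thinned to 2000 UMIs, Tmem119 was found in 21.1 to 41.7% of the cells at 1 week but in 2.42 to 9.91% at 15 weeks, against 0.585 to 3.12% of the other cells. Before thinning these shares were 63.2 to 74.2%, 12.7 to 36.0% and 1.17 to 8.79%. The data do not carry the full microglial set, and the cells are named here by the genes of the rule alone.

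**Figure D2:**
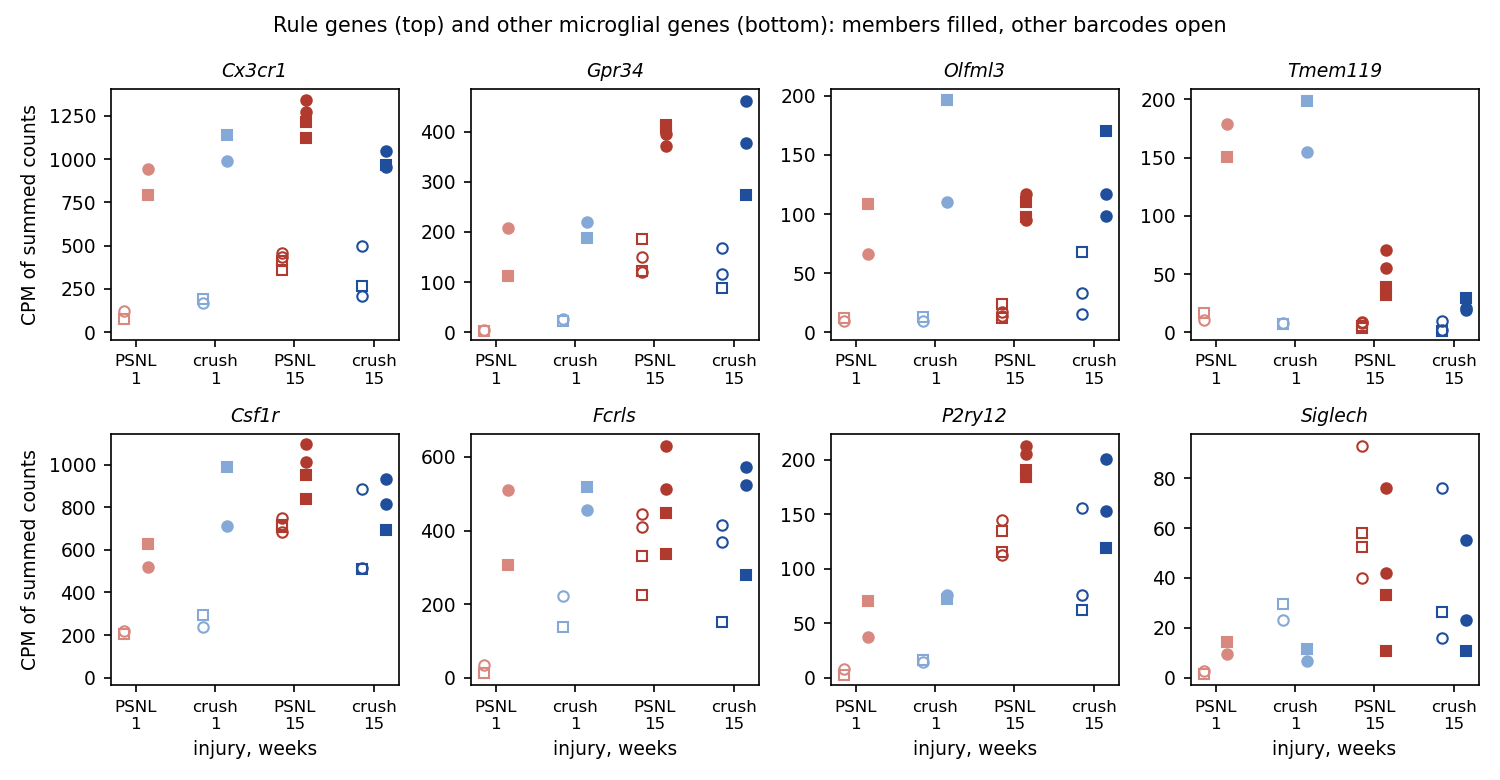
CPM of summed counts (linear axes) in the selected cells (filled) and in the other cells (open) of each hashtag sample, by injury and weeks, for the 4 genes that the rule asks for (top) and 4 further microglial genes (bottom); circles are female and squares male samples. Tmem119 falls below 71 CPM in the selected cells of every 15 week sample, and Siglech does not separate filled from open points.

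Beyond the rule, a TGF-beta target stood highest. Among 3550 genes with at least 50 CPM, Pmepa1, a TGF-beta target that restrains the pathway, was the single gene at least 2-fold higher in every sample (1 gene, 0.0282%). It was at 146 to 773 CPM in the cells and at 40.8 to 132 CPM in the others, with a median log2 ratio of 1.90 (range 1.27 to 3.04). Tgfbr1, the type I TGF-beta receptor, was at 132 to 972 CPM with a ratio of 1.32, and Itgb5, an integrin subunit whose complex with alpha-v binds matrix and latent TGF-beta, at 198 to 569 CPM with 1.26. Of 11 listed TGF-beta genes at 50 CPM, 4 were higher in every sample (Tgfbr1, Skil, Itgb5 and Pmepa1) and 1 lower (Nrros, a protein that tethers latent TGF-beta). Of all 3550 genes, 5.97% were higher and 7.69% lower in every sample. The list median was 0.51, against -0.01 over all 3550. Tgfbr2, the type II receptor, was higher in 10 of 11 samples.

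Genes of other roles lay between and after these. AU020206, a non-coding transcript, had a median log2 ratio of 1.68, Dach1, a transcriptional regulator, 1.57, Rapgef5, a Rap exchange factor, 1.45, and Itga6, a laminin-binding integrin subunit, 1.29. Gpr65, a proton-sensing receptor, reached 1.26, Abcc3, an organic anion exporter, 1.21, Lpcat2, which makes platelet-activating factor, 1.19, and Ms4a7, a tetraspan protein of macrophages, 1.16. Each was higher in all 11 samples, and the range reached below 2-fold in each. The rule made this contrast, so these values carry no test.

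Some complement, clearance and purine genes were higher in every sample, as 5.97% of all 3550 genes were. C1qa, C1qb and C1qc, the chains of the first complement component, were at 2584 to 4422, 2684 to 4303 and 1863 to 3203 CPM and higher in all samples (median log2 ratios 0.87, 0.77 and 0.76). C3ar1, the receptor for C3a, was at 341 to 514 CPM (0.74). Of 11 complement genes at 50 CPM these 4 were higher in every sample, and Itgb2, an integrin subunit of complement receptors, was lower in every sample. Of 11 clearance genes, 4 were higher in every sample and none lower, among them Axl (1.06) and Mertk (0.72), receptors for dying cells. Of 5 purine genes 3 were higher in every sample.

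Lipid and lysosomal genes split. Apoe, the main lipid carrier of macrophages, was at 20440 to 55597 CPM and higher in all 11 samples (median log2 ratio 1.04), and Abca1, a cholesterol exporter, was too (0.57). Lpl, lipoprotein lipase, and Lgals3, galectin-3, were lower in all 11 (-1.95 and -0.84). Spp1, osteopontin, was higher in 5 of 11 samples only. Of 7 genes of antigen presentation by MHC class II at 50 CPM, none was higher or lower in every sample.

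Among transcription factors, Maf, Mef2a and Mef2c, which are linked to resident macrophages and microglia, were higher in all samples (median log2 ratios 0.57, 0.61 and 0.49). Nr4a1, Klf2, Klf4, Bhlhe40, Cebpb and Spi1 were lower in all (-2.76, -1.51, -2.07, -1.72, -0.50 and -0.14). Of 14 immediate early and stress genes, 8 were lower in every sample and none higher (list median -0.96), where 7.69% of all 3550 genes were lower in every sample. They included Zfp36, a decay factor of inflammatory messages (-1.71), Dusp1, a phosphatase of stress kinases (-1.43), and Atf3, a stress-induced factor (-0.97).

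The genes lowest against the other cells belonged to several other cell types. At least 2-fold lower in every sample were 20 genes (0.563%), among them Plac8, Klrd1, Cd209a, Retnla and Mmp9. Plac8, a monocyte gene, was at 0 to 146 CPM against 1.19 to 877 CPM (median log2 ratio -4.72), and Cd209a, a lectin of dendritic cells, had -4.36. Ear2, an eosinophil-associated ribonuclease, had -4.97 but came within 2-fold in at least 1 sample. Mmp9, a neutrophil gelatinase, had -3.54, Klrd1, a lectin-like receptor, -4.55, and Retnla, a resistin-like protein of alternatively activated macrophages, -3.72.

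**Figure D3:**
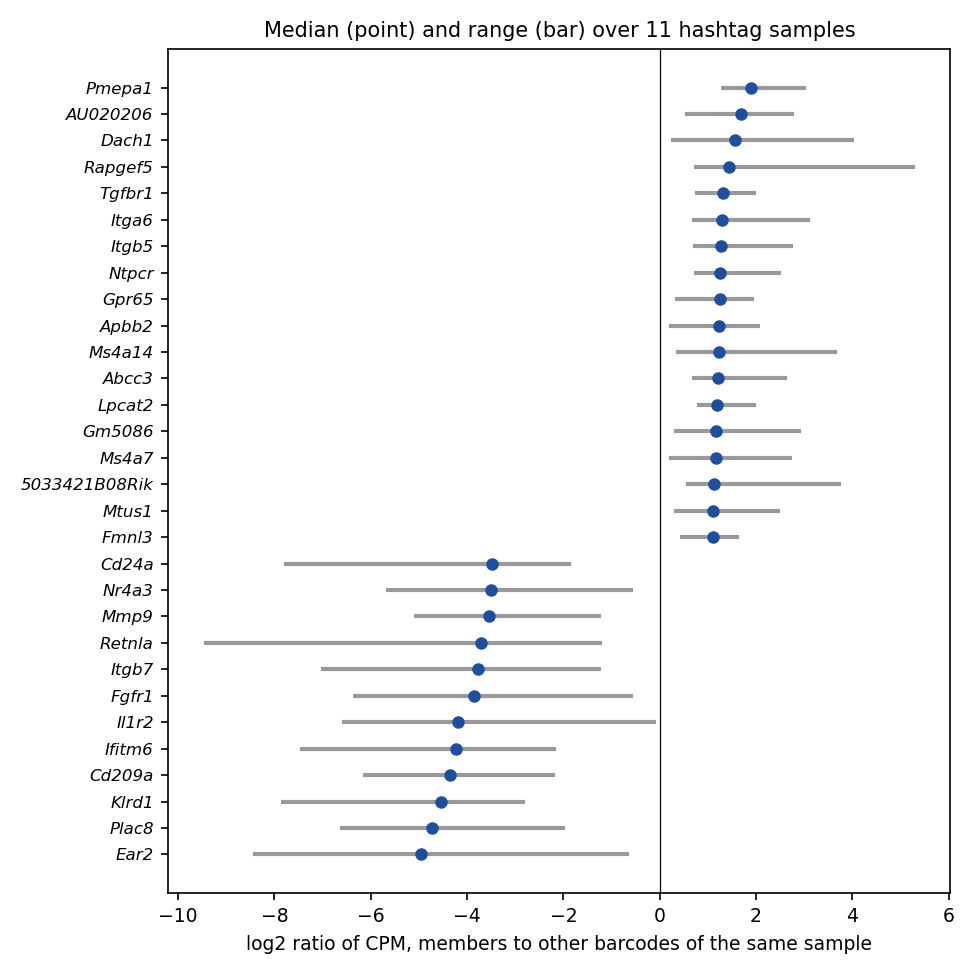
Log2 ratio of CPM between the selected cells and the other cells of the same hashtag sample: median (point) and range (bar) over 11 samples, for the genes highest and lowest by the median after the genes of the rule. Pmepa1 at 1.90 has its whole range above 1, and Ear2 at -4.97 is lowest.

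Markers of other cell types were low in the selected cells at 15 weeks and mixed at 1 week. Summed over each list, neutrophil markers were at 87.3 to 120 CPM at 15 weeks and 151 to 247 CPM in crush at 1 week, but at 2283 to 3571 CPM in PSNL at 1 week. Monocyte markers were at 139 to 501 CPM at 15 weeks and 935 to 4070 CPM at 1 week. Eosinophil markers reached 7.75 CPM, with Prg2, Epx and Il5ra at 0 in every sample. Dendritic markers lay at 0 to 178 CPM (172 to 1228 CPM in the other cells), Schwann cell markers at 66.0 to 315 CPM (99.9 to 350 CPM), and fibroblast and endothelial markers at 0 to 113 CPM. Cd3e, Trbc2 and Cd79a of lymphocytes were at 0. The general myeloid markers Ptprc, Cd68 and Adgre1 were present in every sample, at 424 to 783, 377 to 842 and 141 to 827 CPM.

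Against the nearest other macrophages, the barcodes with at least 3 UMIs of Cd163, Lyve1 and Cbr2 (835 of 7752), few genes were at least 2-fold higher in the cells of every sample. Over 10 samples with at least 10 of each and 3650 genes, 9 genes were at least 2-fold higher in every sample (0.247%), 20 at least 2-fold lower (0.548%), 171 higher in every sample (4.68%) and 231 lower in every sample (6.33%). Gpnmb, a lysosomal glycoprotein of lipid-laden macrophages, was at 126 to 1310 CPM against 34.9 to 142 CPM (median log2 ratio 3.24). Trem2 was at 535 to 1212 CPM against 210 to 348 CPM (1.46), Ctsd, the protease cathepsin D, had 1.83, and Tgfbr1 1.52. Gngt2, a G protein subunit, had 2.20 and Arhgap24, a GTPase-activating protein, 2.73.

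Several epineurial genes that the rule did not use were lower. Folr2, a folate receptor, was at 0 to 24.1 CPM against 119 to 394 CPM (-4.45), Clec10a, a galactose-binding lectin, had -3.10, F13a1, a coagulation factor subunit, -1.72, and Mrc1, the mannose receptor, -1.06, each lower in 10 of 10 samples. Mrc1 was nevertheless abundant, at 623 to 1639 CPM in the cells at 15 weeks. P2ry12 was not a difference from these barcodes, with a higher level in 3 of 10 samples and a median of -0.11. Pmepa1 was higher in 9 of 10. This contrast too was made by the rule and has no test.

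Group comparisons within the cells used the counts of the members summed per hashtag sample. The quasi-likelihood test of edgeR was run on 9225 genes in 11 samples, with Benjamini-Hochberg adjustment and calls at 0.05. Values below for these comparisons are CPM scaled by TMM (trimmed mean of M values). The sham samples, with 1 and 0 members, could not enter.

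At 15 weeks PSNL and crush cells differed in no gene that passed the test. Of 9225 genes 0 were called (0%), with 396 at an unadjusted p under 0.05, and DESeq2 also called 0. P2ry12 was at 193, 196, 180 and 182 CPM in PSNL F1, F2, M1 and M2 and at 152, 198 and 121 CPM in crush F1, F2 and M1. H2-Aa, an MHC class II chain, was at 4881, 6159, 4871 and 4849 CPM in PSNL and at 4100, 6218 and 5894 CPM in crush. For both the injuries overlapped.

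A fit with the replicate number as a block gave another count. The same number went with a shared deviation across the libraries, as the methods give, and on the 6 samples with a partner (F1, F2 and M1) 45 of 8718 genes were called (0.516%), 13 higher and 32 lower in PSNL. Without the block the same 6 samples gave 0. The pairing was chosen from correlations in these same counts, and the fit left 2 residual degrees of freedom. Its p-values are therefore given as description only. The genes named here fall outside the rule for named genes and were chosen after their values were seen. Lower in PSNL were Lgals3 (log2 -1.16 ± 0.10 SE, edgeR adjusted p = 0.00351), Trem2 (-0.63 ± 0.09, 0.022), Ctsd (-0.78 ± 0.11, 0.022), Cd9, a tetraspanin (-0.72 ± 0.10, 0.022), Lyz2, lysozyme (-0.65 ± 0.08, 0.018), and Apoe (-0.49 ± 0.07, 0.0222). Higher were Ly6e, an interferon-induced surface protein (1.28 ± 0.13, 0.00811) and Pmepa1 (0.75 ± 0.12, 0.0319).

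These pairs moved together while the samples spread widely. Lgals3 was at 1100, 598 and 1903 CPM in crush F1, F2 and M1 and at 564, 239 and 829 CPM in PSNL F1, F2 and M1. It was lower in PSNL in 3 of 3 pairs, yet the groups overlapped. Trem2 was at 976, 824 and 1225 CPM in crush and at 658, 494 and 812 CPM in the partners, which did not overlap, and at 834 CPM in PSNL M2. PSNL M2, which has no partner and is not in the block fit, was at 1497 CPM of Lgals3, 16112 CPM of Lyz2 and 75.2 CPM of Ly6e, each within or beyond the crush range.

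**Figure D4:**
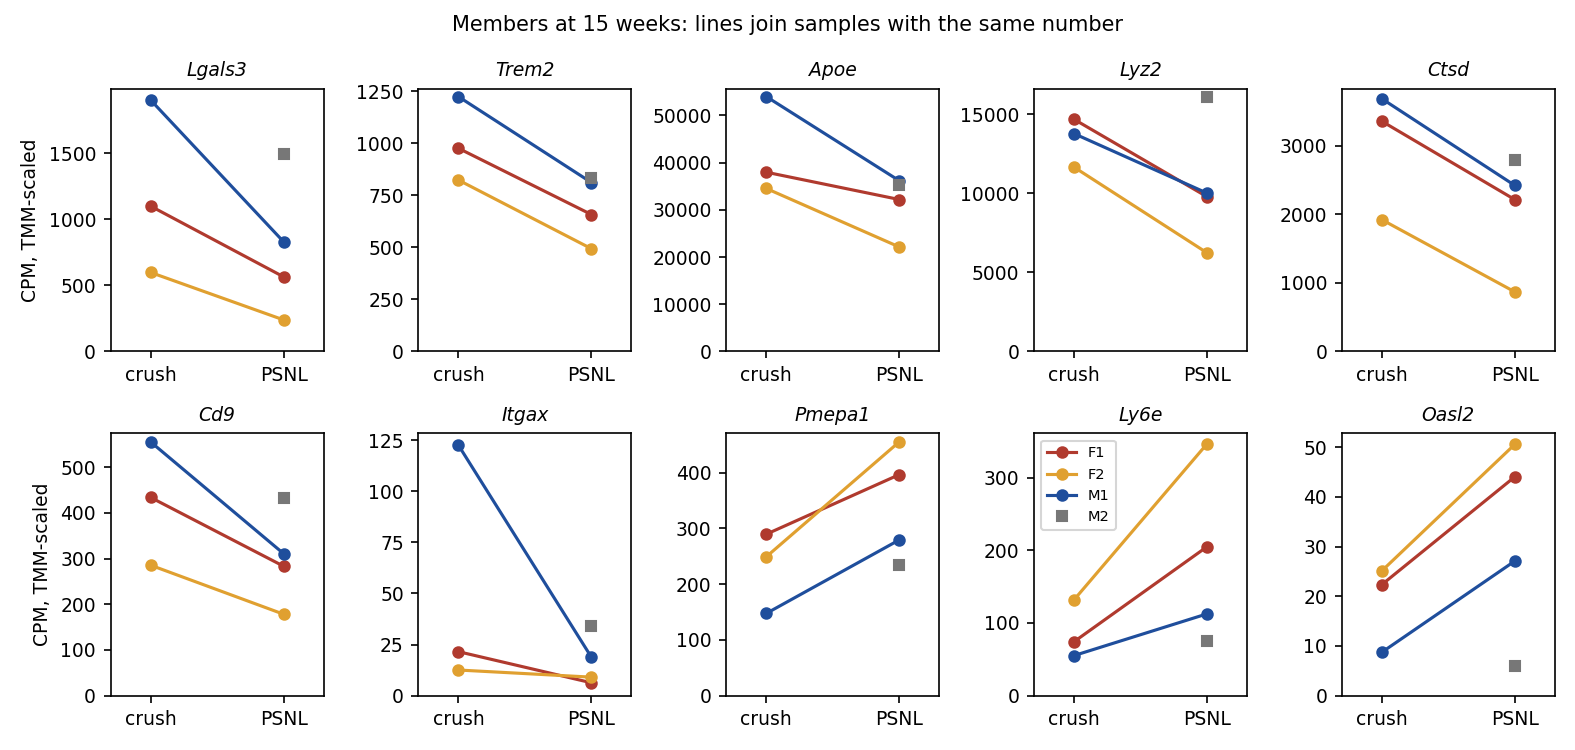
TMM-scaled CPM (linear axes) in the selected cells at 15 weeks; each point is a hashtag sample, lines join the crush and PSNL samples with the same number, and the grey square is PSNL M2, which has no partner. Lgals3 and Trem2 fall along all 3 lines, and the square for Lgals3 lies at 1497 CPM, above every other PSNL sample.

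Crush M1 stood apart from the other samples of 15 weeks. Of 4016 genes, 41 were at least 2-fold above every other 15 week sample in it and 10 at least 2-fold below, against 0 to 2 above in each other sample. In PSNL F2, 11 genes were at least 2-fold below every other sample, and in each remaining sample 0 were. Crush M1 thus stood apart alone in the upward direction, and together with PSNL F2 in the downward direction. The leading gene was Mmp12, a metalloprotease, and others, chosen after their values were seen, included Lpl (597 CPM, plain scale, against 32.9 to 84.98 CPM), Abcg1, a cholesterol exporter (316 against 45.9 to 56.5 CPM), Abca1 (1336 against 299 to 466 CPM) and Itgax, the CD11c integrin subunit (121 against 6.70 to 34.6 CPM). Abca1 was also high in the other cells of crush M1, at 1124 CPM against 223 to 326 CPM. The log2 difference of Itgax between PSNL and crush was -1.76 with crush M1 and 0.00029 without it, and passed the test in neither case, while in the block fit it was -2.13 (edgeR adjusted p = 0.0328).

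At 1 week PSNL and crush cells differed in 70 genes (0.759%), 42 higher and 28 lower in PSNL, with 1306 at an unadjusted p under 0.05. The result rests on 31 PSNL cells, whose share did not exceed that of neutrophil-like barcodes. S100a9 and S100a8, the subunits of the neutrophil protein calprotectin, were at 1703 and 1497 CPM and at 1674 and 887 CPM in PSNL female and male, against 0 in both and 0 and 5.72 CPM in crush. S100a9 was at least 524-fold higher by a floor of 3 counts over the crush group, and S100a8 was higher by 8.23 ± 0.62 on the log2 scale (SE, edgeR adjusted p = 7.28e-06). Of these 31 cells, 5 were neutrophil-like barcodes. Without granulocyte-like barcodes, an alternative chosen after seeing the data, 36 genes were called (22 higher and 14 lower), 32 of them among the 70, and S100a9 and S100a8 lost the call at fitted log2 differences of 9.72 and 3.92 (edgeR adjusted p = 0.0827 and 0.096).

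Of 18 inflammatory genes tested 1, Il1b, was called higher in PSNL and none lower, where 0.759% of all genes were called. Il1b, interleukin-1 beta, was at 545 and 585 CPM in PSNL and at 31.2 and 21.5 CPM in crush (log2 4.52 ± 0.78 SE, edgeR adjusted p = 0.0132). Arg1, arginase, was at 38.3 and 564 against 7.79 and 2.86 CPM (6.24 ± 0.98, 0.00946). Clec4e, a lectin that senses damaged cells, was at 182 and 267 against 0 and 1.43 CPM (7.67 ± 0.76, 1.18e-04). These groups did not overlap, which held for all 70 called genes and for 3684 of all 9225 genes. All 3 kept the call without granulocyte-like barcodes. Vegfa, a vascular growth factor, Slc7a11, a cystine transporter, and Cxcl3, a neutrophil-attracting chemokine, were at 0 in crush and at least 56.9-fold, 54.7-fold and 284-fold higher in PSNL. Cxcl3 lay at 19.1 CPM in the female but 1297 CPM in the male, so the samples differed widely.

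Mertk and Axl, receptors for dying cells, and Tgfbr1 were among the falls. Mertk was at 57.4 and 46.1 CPM in PSNL and at 191 and 182 CPM in crush (log2 -1.88 ± 0.33 SE, edgeR adjusted p = 0.0132). Axl (-1.61 ± 0.35, 0.0479), Tgfbr1 (-1.57 ± 0.33, 0.0455), Itgb5 (-1.23 ± 0.25, 0.0348) and P2rx7, an ATP-gated channel (-2.63 ± 0.56, 0.0435), fell too. Without granulocyte-like barcodes these 4 missed the threshold at differences of about the same size (-1.59, -1.55, -1.29 and -2.44). Of 13 clearance genes tested 3 fell and 1, the scavenger receptor Msr1, rose, of 14 TGF-beta genes 2 fell, and of 21 microglial genes 2 fell, where 0.759% of all genes were called. The medians of these lists were -0.50, -0.54 and -0.64, and -0.11 over all 9225.

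The 1 week comparison depended on single samples. With each of the 11 samples left out in turn the count fell to 6 (crush male), 9 (PSNL male), 44 (PSNL female) and 45 (PSNL F1 of 15 weeks), rose to 106 (crush M1 of 15 weeks) and 165 (crush female), and 5 genes kept the call each time (S100a9, Srgn, Clec4e, S100a8 and Rpl10).

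Between 1 and 15 weeks many genes differed, in PSNL 2082 (22.6%, of which 1256 or 13.6% higher and 826 or 8.95% lower at 15 weeks) and in crush 2285 (24.8%, with 1435 or 15.6% higher and 850 or 9.21% lower). With each sample left out in turn 583 and 582 genes kept the call. The count moved by over 1.5 times without the PSNL female (1289) or male (881) of 1 week in PSNL, and without the crush male of 1 week (722) in crush. Technical differences moved with these calls. The matrix headers name Cell Ranger 6.0.0 at 1 week and 7.0.0 at 15 weeks, and the sources used here do not state whether intronic reads were counted. The gene lists differed too. Of 30406 genes in common, 597 carried different symbols in the crush lists of 1 and 15 weeks. The genes higher at 15 weeks had a median genomic span of 103 kb (PSNL) and 102 kb (crush), against 26.3 kb over all genes tested and 10.8 and 16.4 kb for those lower. Of 1229 genes spanning at least 100 kb, 52.7% (PSNL) and 59.8% (crush) were higher, and of 2030 genes under 10 kb 3.30% and 4.83% were. Gm42418, which overlaps ribosomal RNA repeats, was at 56637 to 153265 CPM at 1 week and 9508 to 23624 CPM at 15 weeks on the plain scale. Their part in the result was not tested.

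Among the largest rises were genes with no count at 1 week in the same injury. In PSNL, Immp2l, a mitochondrial peptidase subunit, Park2, a ubiquitin ligase, Agmo, an ether lipid enzyme, Mgl2, a galactose-binding lectin, and Rnasek, a ribonuclease, were at least 35.5-fold, 23.4-fold, 25.5-fold, 31.8-fold and 22.6-fold higher at 15 weeks. In crush, Rnasek, St18, a zinc finger factor, and Prkg1, a cyclic GMP-dependent kinase, were at least 87.6-fold, 72.8-fold and 55.3-fold higher. The floor was 3 counts over the 1 week group. Immp2l, Park2, Agmo, St18 and Prkg1 span 931, 1223, 341, 374 and 1201 kb, and so belong to the long genes that mostly rose. Mgl2 and Rnasek span 7.22 and 1.72 kb. The part of gene span or of the gene lists in these rises was not tested.

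Among the largest falls were neutrophil and matrix genes. S100a9 and Slpi, a secreted protease inhibitor, were at 0 in PSNL cells at 15 weeks and at least 2662-fold and 748-fold lower than at 1 week, and Retnlg, a neutrophil resistin-like protein, was at 0 in crush cells at 15 weeks and at least 291-fold lower. Fn1, fibronectin, fell by 8.76 ± 0.76 on the log2 scale in PSNL (edgeR adjusted p = 2.52e-06) and fell by 4.76 ± 0.73 in crush (3.12e-04). Of 8 monocyte genes tested 6 fell in each injury and none rose, where 8.95% (PSNL) and 9.21% (crush) of all genes fell.

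Mrc1 and several MHC class II genes rose, where 13.6% (PSNL) and 15.6% (crush) of all genes did and 8.95% and 9.21% fell. Mrc1 spans 103 kb, and of genes spanning at least 100 kb 52.7% (PSNL) and 59.8% (crush) rose. H2-Aa and Cd74 span 5.08 and 8.8 kb, and of genes under 10 kb 3.30% and 4.83% rose. Mrc1 was at 584 and 246 CPM in PSNL at 1 week and at 1029 to 1511 CPM at 15 weeks (log2 1.67 ± 0.34 SE, edgeR adjusted p = 0.00278), and at 238 and 197 against 630 to 1277 CPM in crush (2.11 ± 0.35, 5.21e-04). H2-Aa rose by 1.17 ± 0.24 in PSNL (0.00316) and 0.80 ± 0.25 in crush (0.0286), and Cd74, the invariant chain, by 1.04 ± 0.22 (0.0032) and 0.66 ± 0.22 (0.0428). Of 9 MHC class II genes 7 rose in PSNL and none fell, while in crush 3 rose and 2 fell. List medians were 1.17 and 0.66, beside 0.17 and 0.01 over all genes. Of 14 epineurial genes outside the rule 4 rose and 1 fell in PSNL, and 6 rose and 2 fell in crush.

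Microglial genes moved in both directions over time. P2ry12 rose by 1.59 ± 0.31 in PSNL (edgeR adjusted p = 0.00206) and 0.91 ± 0.24 in crush (0.014), and Cd81, a tetraspanin, by 2.03 ± 0.34 (6.66e-04) and 1.88 ± 0.31 (5.66e-04). Of 21 genes 9 rose and 1 fell in PSNL, and 4 rose and 3 fell in crush, with medians of 0.74 and -0.11. Over all genes 13.6% (PSNL) and 15.6% (crush) rose and 8.95% and 9.21% fell, with medians of 0.17 and 0.01. Of 14 TGF-beta genes 5 rose and 1 fell in PSNL and 4 rose and 3 fell in crush. Tgfbr1 rose in PSNL (2.11 ± 0.31, 2.37e-04) and not in crush (0.55 ± 0.26, 0.14), and Pmepa1 fell in crush (-1.70 ± 0.30, 9.93e-04) and was at -0.13 ± 0.32 in PSNL (0.809). The difference between the injuries in these changes was not tested.

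Spp1 and Plin2 fell in both injuries. Spp1 was at 2775 and 3281 CPM in PSNL at 1 week and at 52.8 to 285 CPM at 15 weeks (log2 -4.19 ± 0.43 SE, edgeR adjusted p = 1.11e-05), and at 950 and 461 against 183 to 294 CPM in crush (-1.57 ± 0.46, 0.0212). Plin2, a lipid droplet coat protein, fell by 2.28 ± 0.31 (1.53e-04) and fell by 1.27 ± 0.32 (0.0103). Of 19 genes of the damage and lipid list 4 fell in each injury and none rose. Of 14 immediate early genes 5 fell in PSNL, while 3 rose and none fell in crush. Of all genes 8.95% (PSNL) and 9.21% (crush) fell, and 13.6% and 15.6% rose.

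**Figure D5:**
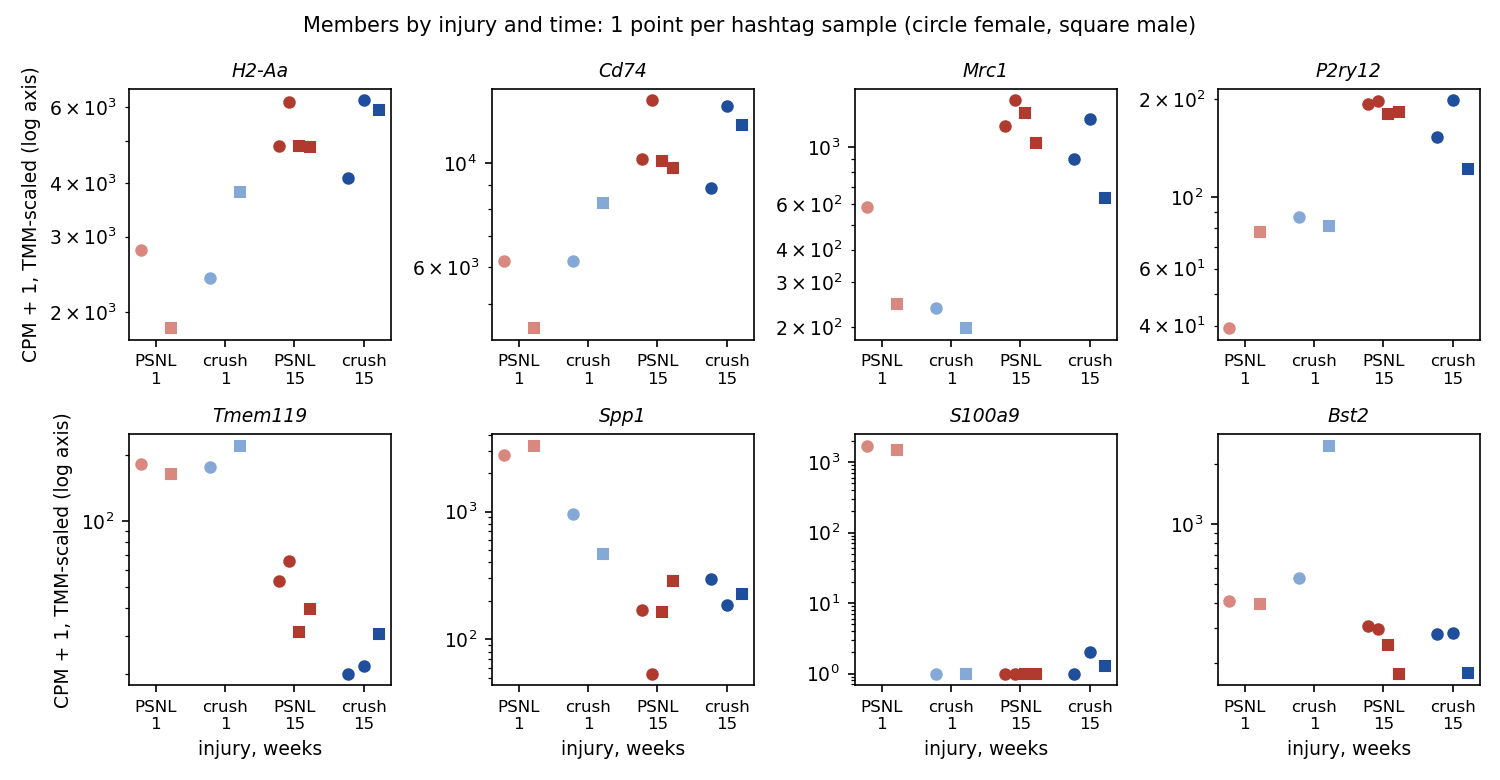
TMM-scaled CPM plus 1 (log axes) in the selected cells of each hashtag sample by injury and weeks; circles are female and squares male. Mrc1 and H2-Aa lie higher and Tmem119 and Spp1 lower at 15 weeks, S100a9 is high in the 2 PSNL samples of 1 week only, and Bst2 is high in the crush male of 1 week.

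Interferon-induced genes fell in crush, and 1 sample carried this. All 11 genes tested were called lower at 15 weeks in crush and none in PSNL, where 9.21% and 8.95% of all genes were. Plain CPM of Ifit2, an antiviral protein, was 0 in the crush female and 384 in the crush male at 1 week, and Isg15, a ubiquitin-like modifier, was at 0 and 377. Bst2, tetherin, was at 534 and 2471 CPM (TMM-scaled) in female and male. The Isg15 change in crush was -4.87 ± 0.88 (edgeR adjusted p = 0.00101) and turned to 6.66 without the crush male. The other cells of that sample also held more, with Isg15 at 424 CPM against 22.3 CPM in those of the crush female on the plain scale.

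Group differences in the cells were compared with those in the other cells of the same samples by an interaction test (edgeR, 10786 genes, the sample as a block). The rule made this split, so a call does not show that a difference is particular to the selected cells. The share of barcodes that the rule took out of the other cells ran from 2.17% (PSNL male, 1 week) to 42.8% (crush M1, 15 weeks). For PSNL against crush at 1 week 59 genes were called (0.547%, 10 higher and 49 lower), at 15 weeks 0 (0%, 285 at an unadjusted p under 0.05), for time in PSNL 100 (0.927%) and for time in crush 184 (1.71%). The makeup of the other cells differed between libraries: neutrophil-like barcodes were 493 of 2100 in the PSNL library and 59 of 1441 in the crush library at 1 week, and 4 in each at 15 weeks. Genes of the rule are among the calls (1, 0, 2 and 3 in this order) and are not described. The values below are TMM-scaled CPM of that fit.

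At 1 week Fcrls, Cd81 and C3ar1 differed less between the injuries in the cells than in the other cells. Fcrls was at 497 and 325 CPM in PSNL cells and at 516 and 582 CPM in crush cells, while the other cells were at 41.6 and 16.2 CPM in PSNL and at 252 and 156 CPM in crush (log2 of the interaction 2.45, edgeR adjusted p = 6.06e-04). Cd81 was at 120 and 125 CPM in PSNL cells and 151 and 100 CPM in crush cells, against 17.5 and 18.3 CPM and 134 and 76.1 CPM in the others (2.47). C3ar1 was at 395 to 524 CPM in the cells of all 4 samples, while the others rose from 107 and 129 CPM in crush to 435 and 417 CPM in PSNL (-2.10). Pf4, platelet factor 4, was lower in the cells than in the others in PSNL and higher in crush (-2.29). These 4 were among the 6 genes called with each sample left out in turn.

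Over time Slco2b1 and Stab1 also differed less in the cells than in the other cells. Slco2b1, an organic anion transporter, was at 156 and 70.0 CPM in PSNL cells at 1 week and 254 to 422 CPM at 15 weeks, while the other cells went from 8.73 and 3.14 CPM to 163 to 248 CPM (log2 of the interaction -3.63 in PSNL and -2.40 in crush). Stab1, a scavenger receptor, was at 725 and 527 CPM in crush cells at 1 week and 483 to 742 CPM at 15 weeks, and at 155 and 114 CPM and then 306 to 609 CPM in the others (-1.65). With each sample left out in turn 11 of the 100 genes in PSNL kept the call, and in crush 3 of the 184, which were Slco2b1, Stab1 and Tbc1d4. Single samples moved these counts by over 1.5 times. At 1 week it was 31 and 8 without the crush female and male, 28 without the PSNL female, 123 and 110 without crush F1 and M1, and 33 without PSNL M1. At 15 weeks it was 13 without crush F1. For PSNL over time it was 36 and 49 without the 1 week female and male, and 54, 35 and 54 without F1, M1 and M2. For crush over time it was 55 and 5 without the 1 week female and male, and 348, 88 and 107 without F1, F2 and M1.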

How the data were processed

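The authors deposited raw UMI counts per gene and barcode, with hashtag counts in the same matrices. Cell Ranger 6.0.0, Seurat 5.1.0 and build GRCm38 stand in the submitters' notes. Members, gene lists and tests were chosen with earlier results of these data known. Gene tables were joined by Ensembl identifier (30406 genes). A barcode was given to a sample if it exceeded the valley between low and high counts of exactly 1 hashtag. HTODemux (Seurat 5.3.0) was an alternative.

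Member counts were summed per hashtag sample (at least 10 members, 106132 to 6837135 UMIs, 11 samples). They were filtered by filterByExpr, scaled by TMM and fitted with 1 coefficient per group in edgeR 4.0.16 (R 4.3.3, residual degrees of freedom 7 and median prior 7.68). DESeq2 1.42.0 was an alternative. Members were compared with other cells of a sample by log2 ratios of CPM with a prior of 0.5 counts and no test. Cells were handled in Python 3.11.15 with scanpy 1.11.5, and shares were tested with scipy 1.17.1. No replicate pair agreed within counting error (chi-squared divided by its degrees of freedom was 2.98 to 9.08). At 15 weeks the deviations of same-numbered PSNL and crush samples correlated at 0.311 (F1), 0.556 (F2) and 0.463 (M1) over 3261 genes, each above every other pairing, so these pairs entered a further fit as a block. Calling was checked on simulated counts with 200 changed genes per comparison. Of 2-fold changes, 17.5% were recovered for PSNL against crush at 1 week and 90.2% at 15 weeks. For time in PSNL and in crush 20.8% and 49.5% were recovered. Recovery of 4-fold changes was 73.2 to 99.0%. Gene spans are those of GENCODE M21.

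Genes that could be named were those of the rule, per comparison the 5 largest rises and falls past the threshold without overlap and at least 50 CPM, the highest 20 and lowest 10 against other cells, up to 6 genes of each list and the 5 smallest adjusted p per interaction. The subset printed, further list members and genes named as chosen after their values were seen fall outside it. Results for some genes are not reported here.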

Additional observations from a re-analysis of the deposited data

Results flagged for a closer look

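In the cells selected by the rule, 2 of 52 values checked within the PSNL samples of 15 weeks lay far from the other 3: H2-Aa at 6682 CPM in F2 and Plac8 at 1.11 CPM in M1 (plain CPM). Plac8 was at 0 in the other 3, so that flag rests on a value near the floor. Chance gives about 1 in 20.

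Differences between groups were not the same in the selected cells and in the other cells of the same samples for the following genes, by the interaction test of edgeR. For PSNL against crush at 1 week the interaction log2 values were -2.29 for Pf4, 2.45 for Fcrls, 2.47 for Cd81, 12.12 for S100a9 and -2.10 for C3ar1. The S100a9 value is a fitted one with crush members at 0 and is no bound. It lost the call with 1 of 11 samples left out, and the other 4 were called each time. For time in PSNL the values were -3.43 for Fcrls, 3.34 for Thbs1, -2.31 for Cd81 and -3.63 for Slco2b1, and each was called with every sample left out. Thbs1, thrombospondin 1, lay at 350 and 250 CPM in PSNL cells at 1 week against 933 and 1128 CPM in the other cells, and at 5.13 to 20.5 CPM in PSNL cells at 15 weeks. For time in crush they were -2.80 for Ccl12, -1.65 for Stab1, -1.65 for Abca1, -4.10 for C4b and -2.40 for Slco2b1, of which Stab1 and Slco2b1 were called with every sample left out.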

How the results depend on the processing

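The count of genes that differed between PSNL and crush cells at 1 week was 70 and moved to 36 without the highest doublet scores, 36 without granulocyte-like barcodes, 421 with no filter on low counts and 145 with DESeq2. At 15 weeks it was 0 and moved to 154 with no filter, 1 with sex as a term and 45 with the replicate block. The block left 2 residual degrees of freedom, and its pairing was chosen after seeing correlations in these same counts. The time count in crush was 850 after thinning to 2000 UMIs, which leaves fewer cells. With hashtags by HTODemux the interaction counts were 91 at 1 week and 290 for time in crush. The share in PSNL minus sham at 1 week went from 1.43 to -1.79 percentage points after thinning, and PSNL minus crush at 15 weeks from 1.37 to -0.33 with at least 1 Cx3cr1 UMI. Leaving out each sample in turn gave 6 to 165 genes at 1 week, 0 to 1 at 15 weeks, 881 to 2192 for time in PSNL and 722 to 2424 for time in crush. The interactions gave 8 to 123, 0 to 13, 35 to 136 and 5 to 348, and the share in PSNL minus crush at 15 weeks was -2.13 to 4.70 percentage points. The cause of these moves was not tested. Among named genes, 1208 of 1313 alternative values kept direction and side of the threshold, 88 lost the call, 15 gained it and 2 turned: Itgax at 15 weeks (-2.29 to 0.00029 over the samples left out, the last without crush M1) and Isg15 for time in crush (-5.72 to 6.66, the last without the crush male). Alternatives chosen after seeing the data were those without granulocyte-like barcodes, with the 15 week samples alone and with the 6 paired samples without the block. Comparisons with sham in the cells and a library term at 1 week could not be fitted and were not run.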
